A study of Mus musculus with 6 samples.

Results

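H3K27ac and H3K27me3 were compared here with each other, within the distal forelimb bud of the mouse. The regions were those of the 2 peak lists of the distal piece on chromosomes 1 to 19 and X, with lines of the same interval collapsed to 1 region. This gave 59804 H3K27ac regions and 9083 H3K27me3 regions, of 379158 regions in the 8 lists of the series. The study asked what becomes of a digit enhancer of the HoxD locus when it is placed in the neighbouring regulatory domain, and its 6 ChIP-seq libraries give the chromatin of the wild-type limb. Both libraries used here came from wild-type embryos of the strain B6CBAF1 at embryonic day E12.5, from the distal forelimb (DFL), the presumptive digits. Per the study's reporting summary, ChIP was done once, on pooled tissue. The labels describe each library as a new analysis of a sample deposited earlier. The paper cites different earlier publications for the H3K27ac and the H3K27me3 data, and its reporting summary lists different read lengths for them. There was 1 library per mark, so that no p-value could be computed. The mark cannot be told apart from the source study, the read length and the preparation of its library. All 95% intervals below are Wilson intervals and cover counting error only.

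H3K27ac is the acetylation of lysine 27 of histone H3 and is found at active promoters and enhancers. H3K27me3 is the trimethylation of the same lysine by the Polycomb repressive complex, which holds developmental genes silent where they are not needed. A single lysine cannot carry an acetyl and a methyl group at the same time. A place with both marks in a tissue therefore combines different histone tails, which can lie on different nucleosomes, alleles or cells, and bulk ChIP-seq cannot tell these apart. It also cannot tell fewer marked cells from less mark per cell.

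Promoters were sorted into 4 states, and 7 of them are shown here because they give the range of CpG content among the states described below. Each is the stretch of 250 bases before the RefSeq start of the gene on the assembly GRCm38.p6, written in the direction of transcription, with the CG dinucleotides in capitals. Bmp4 (chr14:46390670-46390919, minus strand), a secreted signal of the limb mesenchyme, and Sp9 (chr2:73271676-73271925, plus strand), a zinc finger factor of the limb ectoderm, had both marks. Hoxd13 (chr2:74667975-74668224, plus strand), the main HoxD gene of the digits, and Krt5 (chr15:101712906-101713155, minus strand), a keratin of basal epidermis, had H3K27ac alone. Grem1 (chr2:113758649-113758898, minus strand), a secreted inhibitor of Bmp signals, and Hoxb1 (chr11:96365508-96365757, plus strand), a hindbrain Hox gene, had H3K27me3 alone. Hbb-y (chr7:103853208-103853457, minus strand), an embryonic beta-like globin gene, had neither mark. The genes were chosen after their values were seen.
Bmp4: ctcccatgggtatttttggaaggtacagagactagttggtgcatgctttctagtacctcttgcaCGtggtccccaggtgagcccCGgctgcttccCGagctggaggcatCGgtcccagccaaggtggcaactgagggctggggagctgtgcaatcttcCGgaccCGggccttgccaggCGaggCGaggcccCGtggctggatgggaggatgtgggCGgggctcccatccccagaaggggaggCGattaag
Sp9: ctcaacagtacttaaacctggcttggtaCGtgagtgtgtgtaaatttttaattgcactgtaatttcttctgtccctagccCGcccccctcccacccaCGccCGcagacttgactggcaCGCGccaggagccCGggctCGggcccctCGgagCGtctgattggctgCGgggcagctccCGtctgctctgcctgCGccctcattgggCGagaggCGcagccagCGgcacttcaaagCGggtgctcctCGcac
Hoxd13: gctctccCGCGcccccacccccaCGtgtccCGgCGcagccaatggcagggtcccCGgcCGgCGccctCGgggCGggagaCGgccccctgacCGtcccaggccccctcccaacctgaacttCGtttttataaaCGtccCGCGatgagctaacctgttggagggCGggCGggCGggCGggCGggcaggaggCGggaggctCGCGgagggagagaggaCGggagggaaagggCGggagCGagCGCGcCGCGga
Krt5: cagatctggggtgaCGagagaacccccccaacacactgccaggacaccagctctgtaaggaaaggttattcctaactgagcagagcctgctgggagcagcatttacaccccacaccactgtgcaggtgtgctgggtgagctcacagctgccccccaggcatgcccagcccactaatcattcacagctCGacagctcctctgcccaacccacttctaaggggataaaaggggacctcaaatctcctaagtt
Grem1: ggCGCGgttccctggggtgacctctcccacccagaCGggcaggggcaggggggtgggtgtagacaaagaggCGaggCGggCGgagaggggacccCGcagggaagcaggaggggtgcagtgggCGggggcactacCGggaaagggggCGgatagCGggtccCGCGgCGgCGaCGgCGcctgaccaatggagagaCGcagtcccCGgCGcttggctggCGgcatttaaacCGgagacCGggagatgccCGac
Hoxb1: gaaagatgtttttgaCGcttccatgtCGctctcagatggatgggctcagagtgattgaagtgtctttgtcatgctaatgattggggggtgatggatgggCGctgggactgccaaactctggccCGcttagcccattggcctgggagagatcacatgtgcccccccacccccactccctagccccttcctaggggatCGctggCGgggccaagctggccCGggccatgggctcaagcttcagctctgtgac
Hbb-y: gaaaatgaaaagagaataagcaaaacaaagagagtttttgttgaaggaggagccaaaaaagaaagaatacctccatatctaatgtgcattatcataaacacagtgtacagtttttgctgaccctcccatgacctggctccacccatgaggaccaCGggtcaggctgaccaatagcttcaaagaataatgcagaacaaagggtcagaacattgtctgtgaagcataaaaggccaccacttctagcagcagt
The stretches held 11 CG dinucleotides at Bmp4, 18 at Sp9, 31 at Hoxd13, 2 at Krt5, 24 at Grem1, 7 at Hoxb1 and 1 at Hbb-y. Hoxd13 and Krt5, both with H3K27ac alone, thus lay near opposite ends of the range.

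The 2 lists differed in extent. H3K27ac regions covered 36.5 Mb, or 1.38% of the chromosomes used, with a median length of 458 bp. H3K27me3 regions covered 7.11 Mb, or 0.270%, with a median length of 629 bp. Each region carries a fold, which is the pileup of fragments at its summit over the local background of the same library, each plus 1. The median fold was 2.89 for H3K27ac (1.21 to 15.6) and 3.23 for H3K27me3 (1.51 to 19.2). The lowest background that could be solved from the folds was 12.49 fragments for H3K27ac and 3.06 for H3K27me3, the only sign of depth in the lists, by which the H3K27ac library was the deeper. The local background at the median region was 1.28 times the lowest for H3K27ac and 3.66 times for H3K27me3. A region must rise above its own surroundings, and inside a broad domain of a mark the fold is low or no region is found. The absence of an H3K27me3 region is therefore not a measurement of absent H3K27me3.

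A small share of the regions of either mark overlapped the other, and most overlaps lay at promoters. H3K27me3 covered 0.270% and H3K27ac 1.38% of the chromosomes. These covers are not the shares to be met at random, since 1 shared base counts and a longer region reaches more bases. An excess of overlap over random placement was not tested. Of the H3K27ac regions, 1287 (2.15%, 2.04 to 2.27%) overlapped an H3K27me3 region by at least 1 bp. Of the H3K27me3 regions, 1290 (14.2%, 13.5 to 14.9%) overlapped an H3K27ac region. With only the 9083 strongest H3K27ac regions kept, the shares were 0.561% and 0.595%, and in this comparison the number and the strength of the H3K27ac regions change together. Within 2 kb of the start of a protein-coding gene, 5.56% of H3K27ac regions (1019 of 18332) overlapped H3K27me3, against 0.531% in gene bodies (114 of 21487) and 0.771% between genes (154 of 19985). For H3K27me3 regions the shares were 19.2% at promoters (1022 of 5310), 7.09% in gene bodies and 7.12% between genes. Promoters held 79.2% of the overlapping H3K27ac regions, against 29.6% of those with no overlap. They held 79.2% of the overlapping H3K27me3 regions, against 55.0% of those with no overlap. The median distance to the nearest start was 110 bp for H3K27ac regions with an overlap and 21947 bp for those without.

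Overlapping regions were mostly staggered. The 1344 overlapping pairs shared 386 kb, which was 1.06% of the length covered by H3K27ac and 5.43% of that covered by H3K27me3. A pair shared a median of 242 bp (quartiles 136 and 372 bp). In 988 pairs (73.5%) the regions were staggered, in 220 (16.4%) the H3K27ac region lay inside the H3K27me3 region, and in 136 (10.1%) the H3K27me3 region lay inside the H3K27ac region. The summits lay a median of 432 bp apart. In 101 pairs they were within 50 bp, and 57.4% of these pairs were at promoters, against 81.1% of the other 1243.

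The overlap with the other mark followed the strength of a region differently for the marks. When H3K27ac regions were divided into deciles by fold, the share that overlapped H3K27me3 was 1.40% in the weakest decile (84 of 5981), 3.65% in decile 8 (218 of 5980) and 0.819% in the strongest (49 of 5981, 0.620 to 1.08%). The strongest H3K27ac regions thus had the lowest share of the 10 groups. Among H3K27me3 regions, the share that overlapped H3K27ac was 3.19% in the weakest decile (29 of 909) and 27.9% in the strongest (254 of 909, 25.1 to 30.9%), and it was higher in each decile than in the one before. Local background moved with this result. It was 2.59 times the lowest at the median overlapping H3K27me3 region and 3.94 times at the median region with no overlap, and its part in the result was not tested.

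**Figure D1:**
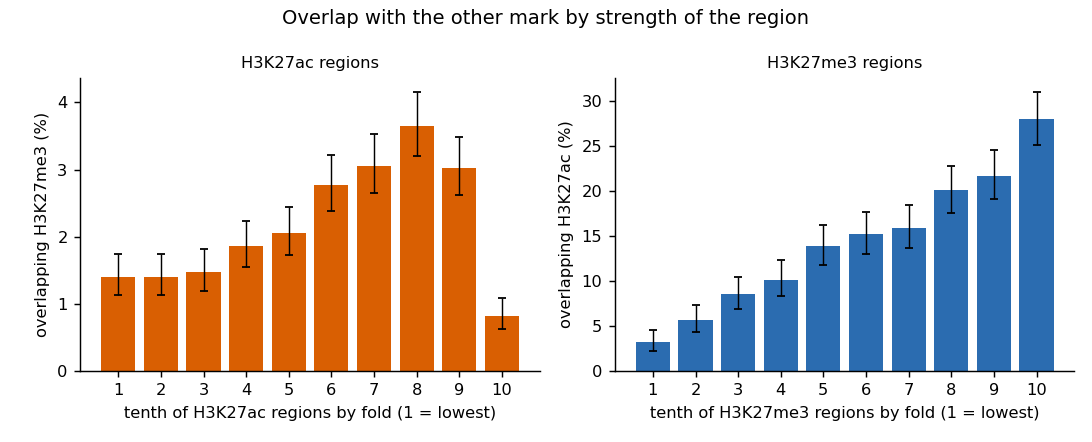
Percent of H3K27ac regions that overlap H3K27me3 (left) and of H3K27me3 regions that overlap H3K27ac (right), in deciles of regions by fold enrichment, with Wilson 95% intervals as error bars. The strongest decile of H3K27ac regions stands at 0.819%, and the strongest decile of H3K27me3 regions at 27.9%.

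Of the 5 pairs in which both marks were strongest, 4 lay at places that every list of the series contained. Ranked by the smaller fold of the pair, the first lay 24581 bp from Ly6c2 (chr15:75086614-75087095), with folds of 10.7 for H3K27ac and 12.4 for H3K27me3 and summits 11 bp apart. The second lay in Gm21887, the fourth 37233 bp from Rpusd4 and the fifth 197889 bp from Samd9l. The shared bases of these 4 pairs also lay in a region of all 6 other lists of the series, namely CTCF, HOXA13, HOXD13 and the proximal lists. The third pair, at the promoter of Syap1, lay in 2 of the 6. Of the 10 pairs away from promoters with both folds of at least 5, 9 lay in the regions of the CTCF, HOXA13 and HOXD13 lists. Of the 21 such pairs at promoters, 5 lay in the distal CTCF list, 4 in the HOXA13 list and 2 in the HOXD13 list. The methods name no input library for the peak calls, and what these places owe to the marks was not tested. Leaving out the regions of the 33 pairs found in all 6 other lists left 2.098% of H3K27ac and 13.9% of H3K27me3 regions with an overlap.

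High folds of both marks also met at promoters outside those places. At Vgll3, a cofactor of TEAD factors, folds of 6.199 for H3K27ac and 5.42 for H3K27me3 shared 318 bp, with summits 975 bp apart. At Mkrn1, a ubiquitin ligase gene, the folds were 6.52 and 6.50 in that order, and the regions shared 93 bp. At Csgalnact1, which encodes an enzyme of chondroitin sulfate synthesis in cartilage matrix, they were 5.79 and 5.36 over 370 shared bp, with summits 441 bp apart. These 3 genes were chosen after their values were seen.

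Regions that did not overlap were still unevenly spaced. H3K27ac regions with no overlap lay a median of 137652 bp from the nearest H3K27me3 region, and 7.65% of them lay within 10 kb. H3K27me3 regions with no overlap lay a median of 15463 bp from the nearest H3K27ac region, and 40.9% lay within 10 kb and 90.0% within 100 kb. The H3K27ac list is the longer, and its part in the order of these distances was not tested. H3K27me3 regions at promoters with no overlap lay within 1 kb of H3K27ac in 26.03% of cases, against 7.29% in gene bodies and 7.26% between genes. The H3K27me3 regions farthest from any H3K27ac were at the following genes. Slitrk4 and Il1rapl1 on the X chromosome, which encode synaptic adhesion proteins, had H3K27me3 regions 2376613 bp and 2337536 bp from the nearest H3K27ac region. Brinp3 followed at 2190513 bp on chromosome 1, and Lingo2 was at 1725290 bp on chromosome 4.

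H3K27me3 regions within 10 kb of each other were joined into 2365 stretches of at least 2 regions, of which 651 (27.5%) touched an H3K27ac region. Of the H3K27ac regions free of overlap, 294 (0.502%) lay inside such a stretch, and the stretches made up 0.360% of the chromosomes. Counting every H3K27ac region that touched a stretch, those with an overlap included, there were 95.1 per Mb of stretch, against 22.7 per Mb of all chromosomes used. The longest stretch, of 36.0 kb, held Wnt6 and Wnt10a, which encode Wnt ligands of the ectoderm, and 9 H3K27me3 regions, with 5 H3K27ac regions inside it. The second, of 35.0 kb, held Hoxb7, Hoxb8 and Hoxb9 and touched 0 H3K27ac regions. Stretches at Dmbx1, Prdm8, Gbx2 and Foxl2, genes of transcription factors of brain or gonad, also touched 0.

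At the level of genes, promoters with H3K27ac alone were the most numerous, and those with both marks and with H3K27me3 alone were similar in number. Of 21701 protein-coding genes, 1918 had both marks within 2 kb of a start (8.84%, 8.47 to 9.22%), 10925 had H3K27ac alone (50.3%), 1695 had H3K27me3 alone (7.81%) and 7163 had neither (33.0%). The order of both marks and H3K27me3 alone turned round at −log10 q of at least 5 (1304 and 1614) and at a fold of at least 3 (1343 and 1551). With only the 9083 strongest H3K27ac regions, 411 promoters had both marks and 3202 had H3K27me3 alone. Of the 3613 promoters with H3K27me3, 53.1% also had H3K27ac (51.5 to 54.7%), against 60.4% of the 18088 promoters without H3K27me3 (59.7 to 61.1%). This comparison pools promoters of every CpG content, and its direction differed between low and high CpG content, as given below. In 971 of the 1918 genes with both marks (50.6%) the regions overlapped. In 1814 (94.6%) both marks lay within 2 kb of the same start, and in 104 (5.42%) they lay near different starts of the gene.

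Both marks were most often found where the H3K27ac fold was low. Fold is taken over the local background, so a low fold is not always a small cover of H3K27ac. Hoxa11, with H3K27ac alone, had a fold of 1.89 and 8516 bp within 10 kb. Among promoters with H3K27ac, H3K27me3 was present at 37.3% of the quintile with the lowest H3K27ac fold (959 of 2569, 35.5 to 39.2%), then at 16.7, 8.60 and 6.19%, and at 5.80% of the highest quintile (149 of 2569). The median H3K27ac fold was 4.44 at promoters with both marks and 6.77 at promoters with H3K27ac alone. H3K27ac covered a median of 1060 bp within 10 kb of the 5′ end at promoters with both marks, and 1562 bp at those with H3K27ac alone. For H3K27me3 the order of the folds was the other way round, with a median of 3.90 at promoters with both marks and 3.57 at promoters with H3K27me3 alone. Covered length was nonetheless shorter, with medians of 1075 bp and 1624 bp in the same order. H3K27ac was present at 37.5% of the quintile with the lowest H3K27me3 fold (271 of 723) and at 64.6% of the highest (467 of 723, 61.0 to 68.0%).

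In a majority of promoters with both marks and closely spaced starts, the H3K27me3 summit lay downstream of the H3K27ac summit. Among 1091 promoters with both marks whose starts lie within 500 bp of the 5′ end, H3K27ac covered the start in 39.5% and was most frequent 300 bp downstream, at 71.4%. H3K27me3 covered the start in 14.4% and was most frequent 800 bp downstream, at 52.3%. It also lay upstream of the start, in 21.4% at an offset of -600 bp. Where H3K27ac stood alone (8033 promoters), it covered the start in 70.6% and was most frequent at 250 bp, at 89.5%. Where H3K27me3 stood alone (1200 promoters), it covered the start in 39.3% and was most frequent at 700 bp, at 65.4%. In 1088 of the promoters with both marks, summits of both could be placed, and the strongest H3K27me3 summit lay downstream of the strongest H3K27ac summit in 708 (65.1%, 62.2 to 67.8%). The median summit offset from the start was 223 bp for H3K27ac and 723 bp for H3K27me3, in the direction of transcription. The quartiles were -108 and 418 bp for H3K27ac and -436.5 and 1098.5 bp for H3K27me3.

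**Figure D2:**
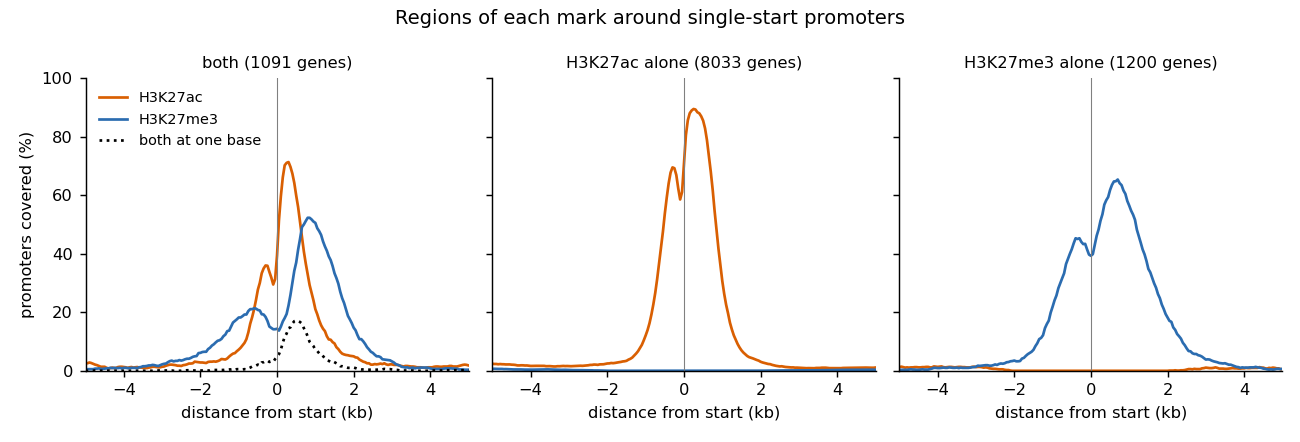
Percent of promoters covered by an H3K27ac region (orange) and an H3K27me3 region (blue) by distance from the gene's start in kb, positive in the direction of transcription, for promoters with both marks, H3K27ac alone and H3K27me3 alone. With both marks, H3K27ac peaks at 71.4% and H3K27me3, farther from the start, at 52.3%, and the dotted line gives the percent of promoters covered by both at the same base.

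CpG content, which the states were not chosen on, separated promoters with a mark from those with neither. The ratio of observed to expected CG dinucleotides within 500 bp of the 5′ end had a median of 0.68 at promoters with both marks (quartiles 0.54 and 0.81), 0.73 with H3K27ac alone (0.56 and 0.84), 0.58 with H3K27me3 alone (0.43 and 0.73) and 0.17 with neither (0.11 and 0.28). The quartiles of the 3 marked states overlap, and those of the unmarked state lie below them. A ratio of at least 0.6 was found at 65.6% of promoters with both marks, 70.6% with H3K27ac alone, 47.0% with H3K27me3 alone and 3.77% with neither, against 46.3% of all promoters. In deciles of all promoters by this ratio, both marks were most frequent in decile 6, at 14.7%. H3K27ac alone was found at 5.21% of the lowest decile and 83.1% of the highest. H3K27me3 alone was most frequent in decile 5, at 18.6%, so that both states with H3K27me3 peaked at intermediate CpG content. The lowest decile held 20 promoters with both marks, 113 with H3K27ac alone, 24 with H3K27me3 alone and 2014 with neither. The highest held 251, 1804, 99 and 16 in the same order. H3K27ac was thus more frequent with H3K27me3 than without it in the lowest decile, and less frequent in the highest.

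**Figure D3:**
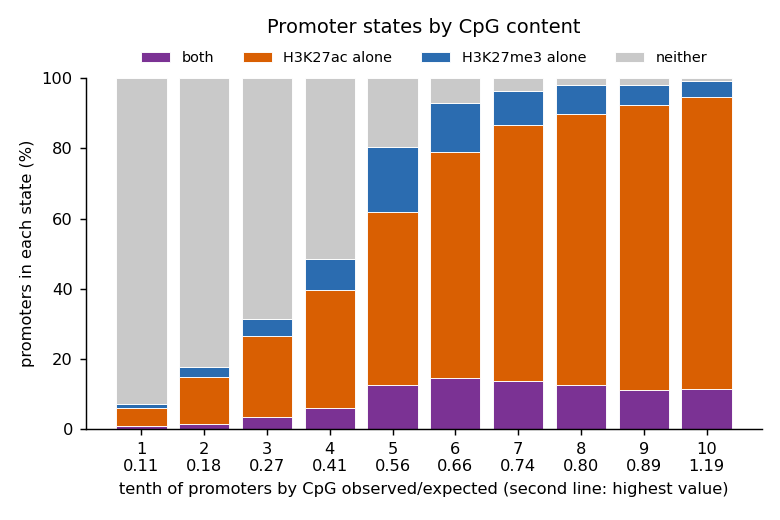
Share of promoters in each state in percent, for deciles of the 21701 promoters ordered by the observed to expected ratio of CG dinucleotides within 500 bp of the 5′ end. Promoters with neither mark (grey) fill 92.8% of the lowest decile and 0.737% of the highest, and H3K27me3 alone (blue) is widest in decile 5.

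Short promoter motifs were counted from 250 bases before to 50 bases after the 5′ end, on both strands. TATAAA, the core of the TATA box, occurred in 7.30% of promoters with both marks, 7.47% with H3K27ac alone, 9.03% with H3K27me3 alone and 22.8% with neither, against 12.6% of all promoters. CCGGAAGT, a sequence bound by ETS factors, occurred in 1.56% with both marks, 8.42% with H3K27ac alone (7.91 to 8.96%), 0.590% with H3K27me3 alone and 0.866% with neither, against 4.71% of all. GCATGCGC, the motif of NRF1, was in 2.19% with both marks, 5.65% with H3K27ac alone, 1.298% with H3K27me3 alone and 0.810% with neither, against 3.41% of all. CCAAT, bound by NF-Y, was in 33.1% with both marks, 39.9% with H3K27ac alone, 31.3% with H3K27me3 alone and 40.8% with neither, against 38.9% of all. Of these motifs, CCGGAAGT and GCATGCGC thus stood more often in promoters with H3K27ac alone than in the other 3 states. No motif contains another, and neighbouring matches can share bases at their ends. A match is a description of the sequence and does not show binding. Median GC content within 500 bp of the 5′ end was 60.7% with both marks and 58.1% with H3K27ac alone. It was 58.6% with H3K27me3 alone and 45.4% with neither. The part of base composition in the motif shares, that of TATAAA above all, was not tested.

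Other proteins also differed by state. CTCF regions of the distal piece lay within 2 kb of a start at 55.9% of promoters with both marks (53.7 to 58.2%), 42.9% with H3K27ac alone, 39.6% with H3K27me3 alone and 9.62% with neither. Regions of HOXA13 or HOXD13, the HOX factors of the digits, from whole forelimb buds of an earlier stage, were at 52.0% of promoters with both marks, 58.3% with H3K27ac alone, 20.5% with H3K27me3 alone and 5.93% with neither. In HOX13 regions, promoters with both marks thus stood nearer to those with H3K27ac alone than to those with H3K27me3 alone. Of all genes, 32.8% had such a CTCF region and 37.5% a HOX13 region. A gene counted if any of its starts had a region. Genes with several starts made up 60.5% of those with both marks, 55.6% with H3K27ac alone, 47.7% with H3K27me3 alone and 42.7% with neither. The part of the number of starts was not tested.

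Genes that every cell uses had H3K27ac alone almost throughout. This was the state of 80 of 83 ribosomal protein genes, 78 of 82 respiratory chain genes, 72 of 74 splicing factor genes, 45 of 48 proteasome genes, 65 of 71 cell cycle genes and 65 of 67 replication-dependent histone genes, against 50.3% of all genes. Histone genes have near-identical copies, and the study's methods discard alignments of low mapping quality, so regions at such copies can be missed. Each of 15 housekeeping genes had H3K27ac alone. So did 323 of 391 Zfp zinc finger genes (82.6%). Among subunits of the Polycomb complexes, 25 of 33 had H3K27ac alone, including Eed, Ezh1, Ezh2 and Suz12, core subunits of the complex that writes H3K27me3. Another 6 had both marks, Bmi1 and Rybp among them. Cbx7 and Phf19 had H3K27me3 alone. The acetyltransferase genes Crebbp and Ep300 and the demethylase genes Kdm6a and Kdm6b each had H3K27ac alone.

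Genes of chemosensory receptors were almost all unmarked. Of 1091 olfactory receptor genes, 1087 had neither mark, and of 363 vomeronasal and taste receptor genes 361 did, against 33.0% of all genes. Keratins (97 of 106) and clustered protocadherins (40 of 55), which encode adhesion proteins of neurons, were also mostly unmarked.

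**Figure D4:**
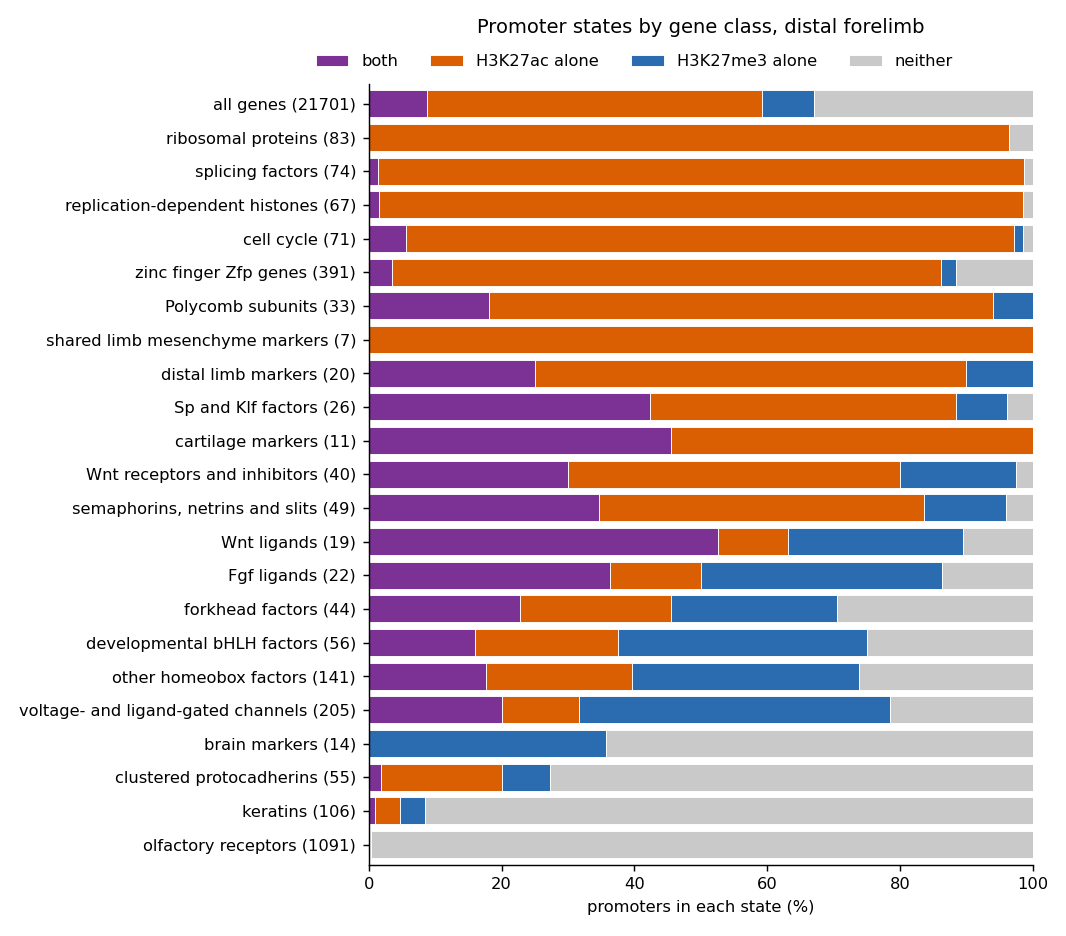
Share of promoters in percent with both marks (purple), H3K27ac alone (orange), H3K27me3 alone (blue) and neither (grey) in 22 gene classes and in all genes, with the number of genes in brackets. Ribosomal protein genes have H3K27ac alone in 80 of 83, Wnt ligands have both marks in 10 of 19, and gated channels have H3K27me3 alone in 96 of 205.

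Several classes of transcription factors and the gated channels had H3K27me3 alone more often than all genes did (7.81%), though not the Sp and Klf factors. Of 141 homeobox genes outside the Hox clusters, 25 had both marks, 31 H3K27ac alone, 48 H3K27me3 alone (34.0%, against 7.81% of all genes) and 37 neither. Of the 37 with neither, 30 had an H3K27me3 region within 10 kb of the 5′ end, which held for 375 of the 7163 unmarked genes as a whole (5.24%). In all, 120 of the 141 had H3K27me3 within 10 kb, against 4474 of 21701 genes. The share with H3K27me3 alone depended on regions of low fold, since at a fold of at least 3 it was 7.09%, against 7.15% of all genes. Fold is taken over the local background, so this cut does not measure the amount of H3K27me3. Developmental bHLH factors had both marks in 9 of 56, H3K27ac alone in 12, H3K27me3 alone in 21 and neither in 14. Forkhead factors were spread evenly, with 10, 10, 11 and 13 of 44 in the same order. Sp and Klf zinc finger factors had both marks in 11 of 26, H3K27ac alone in 12 and H3K27me3 alone in 2. Voltage- and ligand-gated channel genes, which serve nerve and muscle, had both marks in 41 of 205, H3K27ac alone in 24 and H3K27me3 alone in 96 (46.8%, 40.1 to 53.7%).

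The genes of signalling pathways are given here as counts beside the shares of all genes, which were 8.84% for both marks, 50.3% for H3K27ac alone, 7.81% for H3K27me3 alone and 33.0% for neither. No difference between ligands and receptors was tested. Of 19 Wnt ligand genes, 10 had both marks, 2 H3K27ac alone, 5 H3K27me3 alone and 2 neither. At a fold of at least 3, both marks were at 21.1% of Wnt ligand genes, against 52.6% without it. The 2 with H3K27ac alone were Wnt5a, the non-canonical Wnt of the distal mesenchyme (3743 bp of H3K27ac and 0 bp of H3K27me3 within 10 kb), and Wnt5b (1064 bp and 0 bp). Wnt7a, the dorsal ectoderm ligand, had both marks, with 516 bp of H3K27ac and 2042 bp of H3K27me3. Of 40 genes of Wnt receptors and inhibitors, 12 had both marks and 20 H3K27ac alone. Of 22 Fgf ligand genes, 8 had both marks, 3 H3K27ac alone and 8 H3K27me3 alone. Fgf10, the ligand of the limb mesenchyme, had H3K27ac alone (fold 3.84). Fgf8 and Fgf4, ligands of the apical ectodermal ridge, had H3K27me3 alone, with folds of 1.97 and 2.48. In the list of 15 Fgf receptors and feedback genes, 4 had both marks and 11 H3K27ac alone. The 4 were Fgfr2, Fgfr3, Fgfr4 and Etv4.

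In the Hedgehog pathway, 12 of 18 genes had H3K27ac alone (43.7 to 83.7%, against 50.3% of all genes), among them the factors Gli1, Gli2 and Gli3, the receptor Ptch1 and the transducer Smo. Of the ligands, Dhh and Ihh had H3K27me3 alone and Shh had neither mark, with 0 bp of either within 10 kb. The inhibitor Hhip had both marks, with folds of 3.83 for H3K27ac and 3.91 for H3K27me3. In the Notch pathway, the receptors Notch2, Notch3 and Notch4 had H3K27ac alone and Notch1 both marks, while of the ligands Dll1 had both marks, Jag1 H3K27ac alone, and Dll3, Dll4 and Jag2 H3K27me3 alone. Of 34 genes of Bmp, Gdf and related ligands, 3 had both marks (Bmp4, Gdf6 and Tgfb1), 15 H3K27ac alone and 9 H3K27me3 alone. Of 32 Bmp receptors and inhibitors, 9 had both marks, 15 H3K27ac alone and 4 H3K27me3 alone. In the retinoic acid pathway, the degrading enzyme Cyp26b1 had H3K27ac alone (3797 bp within 10 kb), Cyp26a1 both marks and Cyp26c1 H3K27me3 alone.

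The markers of the tissue are given beside all genes, of which 8.84% had both marks, 50.3% H3K27ac alone and 7.81% H3K27me3 alone. The 7 markers shared by limb mesenchyme (Prrx1, Prrx2, Twist1, Tbx2, Tbx3, Tbx5 and Pdgfra) each had H3K27ac alone. Of 20 distal limb markers, 13 had H3K27ac alone (43.3 to 81.9%), and 5 (Bmp4, Lhx2, Lhx9, Sall1 and Sall4) had both marks. Grem1 (1929 bp of H3K27me3 within 10 kb) and Sall3 (1832 bp) had H3K27me3 alone. Of 14 proximal limb markers, 7 had H3K27ac alone, 4 (Irx3, Irx5, Meis2 and Shox2) both marks, 2 (Meis3 and Pkdcc) H3K27me3 alone and 1 (Pax1) neither. Within 10 kb, 12 of the 14 proximal markers had H3K27me3, against 9 of the 20 distal ones and 4474 of 21701 genes in all, and the difference between the lists was not tested. Meis1 had 2547 bp of H3K27ac and 2320 bp of H3K27me3 there, and Msx2, a distal homeobox factor, had 3968 bp and 0 bp.

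Cartilage markers had H3K27ac in 11 of 11, against 59.2% of all genes, and both marks in 5 of them, against 8.84%. Sox9, the master factor of cartilage, had folds of 3.17 for H3K27ac and 3.30 for H3K27me3, with 2988 bp and 365 bp covered within 10 kb. Acan, the main proteoglycan of cartilage, had folds of 3.11 for H3K27ac and 2.79 for H3K27me3.

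Markers of other cell types are given beside the same shares of all genes (8.84% both marks, 50.3% H3K27ac alone, 7.81% H3K27me3 alone and 33.0% neither). Of 15 ectoderm markers, 7 had both marks (Cdh1, Cldn6, Epcam, Esrp1, Grhl2, Grhl3 and Wnt7a), 5 H3K27ac alone and 3 H3K27me3 alone. At Cdh1, the epithelial cadherin, 309 bp of H3K27ac and 3060 bp of H3K27me3 were covered within 10 kb. Of 12 endothelial markers, 2 had both marks (Flt1 and Kdr, receptors of vascular growth factor) and 7 H3K27ac alone. Of 13 muscle markers, 0 had both marks, 4 H3K27ac alone, 3 H3K27me3 alone (Myod1, Acta1 and Des) and 6 neither. Of 14 brain markers, 0 had H3K27ac at a promoter. H3K27me3 alone was called at 5 of these and neither mark at 9. Yet each of the 14 had H3K27me3 within 10 kb, from 258 bp at Neurod6 to 2527 bp at Neurod1, against 4474 of 21701 genes. Whether the marks lie in separate cells at markers of ectoderm or vessels was not tested.

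The genes with the longest cover by both marks came from several tissues, and an excess of any tissue was not tested. R3hdm4, Hic1, Mn1, Mkx, Runx1t1, Ebf1, Nrn1, Bmp4, Col12a1, Zfp580 and Sp9 led the list ordered by the smaller of the lengths covered within 10 kb. The genes described next were picked from this list. Hic1, a repressor expressed in mesenchyme, had 2872 bp of H3K27ac and 3771 bp of H3K27me3. Mkx, the homeobox factor of tendon, had 3417 bp and 2724 bp, and Col12a1, a collagen of tendon and fascia, had 2663 bp and 2513 bp. Ebf1, a factor of mesenchyme and B cells, had 3687 bp and 2686 bp.

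The genes with the longest H3K27ac and no H3K27me3 within 10 kb included 3 of the HoxA and HoxD clusters and 4 histone genes. Hoxa11 had 8516 bp, Skida1 8204 bp, Evx2 7642 bp, Tnrc18 6774 bp and the histone gene Hist1h3g 6760 bp. Fzd2, a Wnt receptor (6239 bp), Id1, a target of Bmp signals (5735 bp), Pdgfra, a growth factor receptor of mesenchyme (5671 bp), and Hoxa7 (5511 bp) followed, along with Hist2h2bb, Hist1h2ag and Hist1h2bb. Their promoter folds were low, from 1.40 at Tnrc18 to 3.803 at Hist2h2bb.

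The genes with H3K27me3 alone were ordered in the same way, among those with no H3K27ac within 10 kb. Mast1, a kinase of neurons, had 5579 bp, Eomes, a T-box factor, 5296 bp, Adamtsl5 4818 bp and Espn, an actin bundling protein of hair cells, 4774 bp. Nxph4, Hoxb1, Lingo3, Ncan and the neuropeptide Y receptor gene Npy1r had between 3686 bp and 4177 bp. Dnajc22 had 4259 bp and Lrrc2 3927 bp.

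The Hox clusters were divided between the marks. The HoxD cluster, from Evx2 to Hoxd1 (chr2:74652991-74765142), held 22 H3K27ac regions over 16.5 kb and 13 H3K27me3 regions over 7.13 kb, and 0 of them overlapped. From Evx2 to Hoxd9, 21 H3K27ac regions followed each other with no H3K27me3 region between them, the last ending at position 74698835. The first H3K27me3 region, at Hoxd8, started at 74703164, so that 4328 bp lay between the marks. All 13 H3K27me3 regions lay from there to Hoxd1, with 1 H3K27ac region among them, at Hoxd3 (chr2:74711875-74712333, fold 2.74). Folds in the cluster were low over a high background. The 21 H3K27ac regions had folds of 1.29 to 2.91 over 4.73 to 20.1 times the lowest background, and the 13 H3K27me3 regions 1.68 to 2.44 over 10.4 to 17.97 times. At Hoxd13, the regions on either side of the start had folds of 1.70 (chr2:74667147-74667736) and 1.61 (chr2:74668592-74669611).

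The HoxA cluster (chr6:52155590-52318378) held 39 H3K27ac regions over 29.5 kb and 4 H3K27me3 regions over 2.49 kb, with 0 overlaps. H3K27me3 covered 2.34% of the long annotated Hoxa3 gene, outside the window around its 5′ end. Hoxa3 to Hoxa13 had 0 bp of H3K27me3 within 10 kb of the 5′ end. Covered H3K27ac there was 7363 bp at Hoxa13 and 661 bp at Hoxa4. Hoxa2 had H3K27me3 alone. The HoxB cluster had the reverse composition, with 3 H3K27ac regions (1.204 kb) and 13 H3K27me3 regions (7.78 kb). Of its 10 genes, 6 had H3K27me3 alone, 3 neither and 1, Hoxb2, both. The HoxC cluster held 18 H3K27ac regions (9.18 kb) and 5 H3K27me3 regions (1.81 kb), and was the one cluster in which the marks overlapped, with 3 H3K27ac and 2 H3K27me3 regions involved. Hoxc10 and Hoxc11 had both marks, with H3K27ac folds of 2.82 and 3.99 and H3K27me3 folds of 1.61 and 1.97. Hoxc9, Hoxc12 and Hoxc13 had H3K27ac alone. For Hoxc4, Hoxc5, Hoxc6, Hoxb2 and Hoxd4 the 5′ end of the annotated gene lies away from the starts of its basic transcripts. Lengths around the 5′ end and promoter state therefore differ there.

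**Figure D5:**
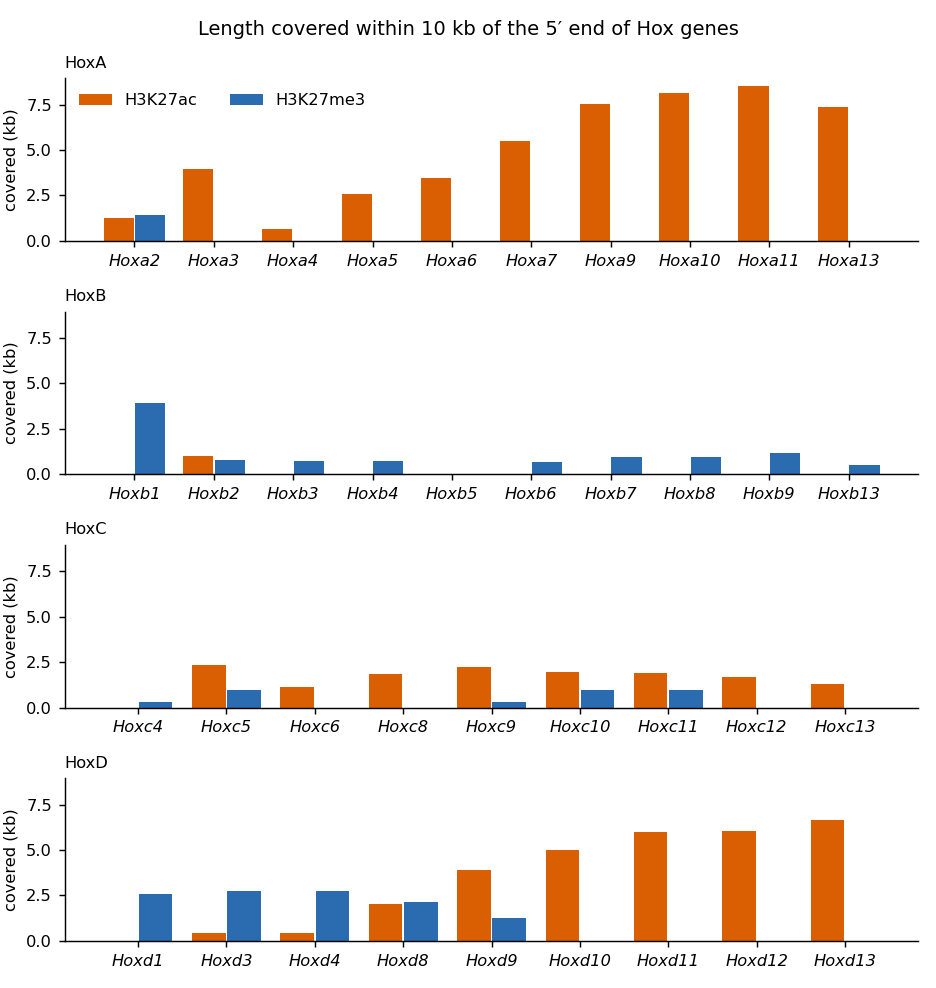
Length in kb covered by H3K27ac (orange) and H3K27me3 (blue) within 10 kb of the 5′ end of genes of the HoxA, HoxB, HoxC and HoxD clusters, so that neighbouring genes share part of their windows. In HoxD, H3K27ac stands at 6629 bp at Hoxd13 and 0 bp at Hoxd1, and H3K27me3 at 0 bp and 2603 bp.

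The X chromosome had fewer regions of both marks, with 6.85 H3K27ac and 0.819 H3K27me3 regions per Mb, against 23.8 and 3.63 on the autosomes. Of its 948 genes, 2.64% had both marks (1.79 to 3.87%), against 9.12% of autosomal genes, and 51.9% had neither, against 32.1%. Copy number of the X in the pooled tissue was not tested.

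The states were largely the same in the libraries of the proximal forelimb piece (PFL). Of the promoters with both marks in DFL, 90.0% had both in PFL, and 92.7% of those with H3K27ac alone, 76.9% of those with H3K27me3 alone and 92.0% of those with neither kept their state. Promoters with H3K27me3 alone in DFL had both marks in PFL in 22.0% (373 of 1695), and 4 had H3K27ac alone there. Of the 10925 promoters with H3K27ac alone in DFL, 652 (5.97%) had both marks in PFL. Over all promoters, 61.6% had H3K27ac and 20.2% H3K27me3 in PFL, against 59.2% and 16.6% in DFL. The PFL H3K27me3 list held more regions than the DFL list. The part of the lists of both marks in these differences was not tested.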

How the data were processed

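ChIP-seq peak lists of H3K27ac and H3K27me3 in wild-type distal forelimb buds were used, 1 library per mark. Per the labels, the submitters' processing notes name cutadapt, Bowtie, SAMtools and MACS2 with mm10. The study's methods name no input control for the peaks, which the authors called library by library, and the lowest −log10 q of the lists fits MACS2's default q-value of 0.05. A deposited line holds an interval, a fold ratio of summit pileup to local background, the −log10 p and −log10 q, and a summit offset.

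Lines of the same interval were collapsed to 1 region on chromosomes 1 to 19 and X. Pileup and background were solved from fold and −log10 p. Promoters counted as marked if any basic transcript of GENCODE vM21 had a start with a region no more than 2 kb away. Of 21755 protein-coding genes, 54 without a unique symbol were left out. CpG ratios and motifs were read from GRCm38.p6, and 16416 of 21701 symbols were in the RefSeq promoter table. The functions were tested on simulated regions. Python 3.11.15, pandas 2.3.3, SciPy 1.17.1 and samtools were used.

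Read totals are not in the lists, so the lowest solved background stands for depth, and 1 library per mark leaves counting error as the only error. Shares have Wilson 95% intervals. Members and gene lists were chosen with earlier results of these data known. Named genes were the 12 per state with the longest cover within 10 kb of the 5′ end (for both marks, the smaller length, and for 1 mark alone, with none of the other in that window), 1 gene per 20 kb, and some of them are not reported here. Alternatives were stricter thresholds, lists of equal size, stitching, other promoter windows and other overlaps.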

Additional observations from a re-analysis of the deposited data

Results flagged for a closer look

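Regions outside the chromosomes used were seen in both lists. H3K27ac had 23 regions on the Y chromosome, 7 on the mitochondrial genome and 50 on unplaced sequence, with folds of up to 11.2, 2.86 and 11.9. H3K27me3 had 6 regions on the Y chromosome, 2 on the mitochondrial genome and 16 on unplaced sequence, with folds of up to 3.90, 5.50 and 9.10. They enter no comparison of the report.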

How the results depend on the processing

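The share of H3K27ac regions that overlapped H3K27me3 (2.15%) was 1.78% at −log10 q of at least 5, 2.28% at a fold of at least 3, 1.31% with at least 50% of the shorter region shared, 2.73% with regions within 1 kb stitched and 0.561% with H3K27ac cut to its 9083 strongest regions. The share of H3K27me3 regions that overlapped H3K27ac (14.2%) was 13.2%, 12.1%, 8.60%, 18.3% and 0.595% under the same alternatives. The median distance from all H3K27me3 regions to H3K27ac (10480 bp) was 14773 bp at −log10 q of at least 5 and 76524 bp with lists of equal size. With equal sizes, 411 promoters had both marks and 3202 had H3K27me3 alone, against 1918 and 1695. The number and the strength of the H3K27ac regions change together there. Promoters with both marks outnumbered those with H3K27me3 alone in the main analysis and in a window of 5 kb (2328 and 1716), but not at −log10 q of at least 5 (1304 and 1614), a fold of at least 3 (1343 and 1551), a window of 1 kb (1640 and 1666) or at the annotated 5′ end alone (1644 and 1736). Other counts of the 4 states stayed within 1.5 times under every other alternative, and so did promoters with both marks (1905) without places called in all 6 other lists, an alternative chosen after seeing the data. Among homeobox genes outside the Hox clusters, H3K27me3 alone was at 34.0%, at 7.09% with a fold of at least 3, and at 50.4% with lists of equal size. Both marks at Wnt ligands were at 52.6%, and at 0% with lists of equal size. By the lowest solved background, the H3K27me3 library was the shallower. The part of depth in the number of its regions was not tested. No paired analysis was possible because each mark had 1 library and no test was run.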
